A study of Mus musculus with 9 samples.

Results

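*Frem2*, *Fras1*, *Frem1*, *Grip1* and *Npnt* encode an extracellular matrix complex of the basement membrane and its closest helpers. These 5 genes, of 25239 gene symbols counted, were examined by RNA-seq in mouse embryonic stem cells (ESCs) with mutated *Rbbp4*, a histone-binding subunit of several chromatin complexes. The set was chosen by the values of *Frem2*, which was lower in both mutant lines than in the control and differed between the mutant lines. The values of *Frem2* are therefore given as a description with no test, and its partners *Fras1*, *Frem1*, *Grip1* and *Npnt* were tested.

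All cells were E14 ESCs, with the strain label 12910la, grown with serum and leukemia inhibitory factor. The control was *Rbbp4*+/+, the Ins/Ins line carried a short in-frame insertion on both alleles of *Rbbp4*, and the Ins/Del line carried that insertion on 1 allele and a short in-frame deletion on the other. Each mutant line was 1 clone made with CRISPR-Cas9, so the genotype and other differences between clones cannot be told apart. Each line gave 3 libraries, for 9 in all, and nothing in the labels says whether they came from separate cultures, so the p-values measure the spread between libraries only.

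FRAS1, FREM1 and FREM2 are large extracellular matrix proteins with repeats of the kind found in the proteoglycan CSPG4 (CSPG repeats) and with Calx-beta domains. They stabilize one another at the basement membrane under embryonic epithelia, and loss of the complex in mice causes blistering of the embryonic skin, eyelid defects and missing kidneys, which in humans is known as Fraser syndrome. GRIP1 is a scaffold protein with PDZ domains that brings FRAS1 and FREM2 to the basal side of epithelial cells, and nephronectin, encoded by *Npnt*, is a matrix ligand of the integrin α8β1 that FRAS1-containing basement membranes help to localize in the developing kidney.

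The genes lie on 4 chromosomes of the mm10 (GRCm38) assembly, with gene limits from the GENCODE M21 annotation. *Frem2* is at chr3:53513938-53657355 on the minus strand, with 24 exons in its longest transcript. *Npnt* is on the same chromosome and strand at chr3:132881745-132950291, with 12 exons. *Fras1* is at chr5:96373955-96784728 on the plus strand with 74 exons, *Frem1* at chr4:82897920-83052339 on the minus strand with 37 exons, and *Grip1* at chr10:119453830-120087261 on the plus strand with 22 exons. The only exonic overlap with another gene was between *Fras1* and *Gm42604* on the opposite strand, over 159 bases or 0.898% of the exonic length of *Fras1*. Whether the reads were counted by strand is not given in the sources used here, so reads in those bases could belong to either gene.

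Promoter sequences are shown because several members moved together, and they let the start regions be compared. RefSeq promoters of 300 bases (250 before and 50 after the start, GRCm38.p6) were matched for *Frem2*, *Npnt*, *Frem1* and *Grip1*, and where a gene had several, the start nearest the GENCODE start was taken. Each runs 5′ to 3′ on the gene's strand with CpG dinucleotides in capitals: chr3:53657306-53657605 for *Frem2*, chr3:132950242-132950541 for *Npnt*, chr4:83052117-83052416 for *Frem1* and chr10:119453784-119454083 for *Grip1*.
Frem2: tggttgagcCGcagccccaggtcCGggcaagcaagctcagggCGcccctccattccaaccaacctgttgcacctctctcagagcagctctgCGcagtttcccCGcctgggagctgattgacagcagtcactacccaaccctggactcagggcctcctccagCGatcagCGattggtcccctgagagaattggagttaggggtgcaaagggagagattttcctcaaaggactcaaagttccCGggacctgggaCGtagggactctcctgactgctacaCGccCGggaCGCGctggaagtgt
Npnt: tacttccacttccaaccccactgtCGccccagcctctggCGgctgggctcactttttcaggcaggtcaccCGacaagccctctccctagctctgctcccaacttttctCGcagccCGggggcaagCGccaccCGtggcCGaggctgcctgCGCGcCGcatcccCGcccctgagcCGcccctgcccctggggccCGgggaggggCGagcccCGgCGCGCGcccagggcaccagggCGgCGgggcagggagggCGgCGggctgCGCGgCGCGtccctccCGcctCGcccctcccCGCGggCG
Frem1: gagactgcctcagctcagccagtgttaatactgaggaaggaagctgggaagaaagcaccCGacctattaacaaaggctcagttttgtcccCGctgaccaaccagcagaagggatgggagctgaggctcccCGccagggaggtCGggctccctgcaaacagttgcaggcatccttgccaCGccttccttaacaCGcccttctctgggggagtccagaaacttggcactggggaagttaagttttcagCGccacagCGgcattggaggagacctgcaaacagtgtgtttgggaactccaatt
Grip1: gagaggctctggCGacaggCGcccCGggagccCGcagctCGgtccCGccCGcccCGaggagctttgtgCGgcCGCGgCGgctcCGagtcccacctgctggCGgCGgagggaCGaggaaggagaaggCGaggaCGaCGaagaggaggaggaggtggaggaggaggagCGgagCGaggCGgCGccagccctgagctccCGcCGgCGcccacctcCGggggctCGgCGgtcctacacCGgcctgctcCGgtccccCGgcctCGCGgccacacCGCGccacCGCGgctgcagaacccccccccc

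The 4 promoters differed in base composition. The *Grip1* promoter held 38 CpG dinucleotides and the *Npnt* promoter 32, numbers reached by 4.95% and 9.52% of all 32851 promoters. The *Frem2* promoter held 13, reached by 37.9%, and the *Frem1* promoter 8, reached by 48.6%, with a median of 7 over all promoters. GC content was 77.3% for *Grip1*, 76.7% for *Npnt*, 60.3% for *Frem2* and 55.7% for *Frem1*, beside a median of 52.7%. Of the 4, the *Frem2* and *Frem1* promoters were nearest to the median of all promoters on both measures.

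Short motifs were searched on both strands of the same windows. The GC box GGGCGG occurred 4 times in the *Npnt* promoter and 2 times in that of *Grip1*, and is found in 35.7% of all promoters. The letters CCAAT occurred 2 times each in the promoters of *Frem2* and *Frem1* and in 37.4% of all promoters. The TEAD-type motif GGAATG occurred 1 time in the *Frem2* promoter and in 14.7% of all promoters. None of TATAAA, the octamer ATGCAAAT or the AP-1 motif TGANTCA was in the *Frem2* window. These are matches of letters, and binding was not measured.

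The libraries were similar in depth, with 15838064 to 21366868 counted reads each, and 14125 genes had enough reads to be tested. Normalized counts below are read counts scaled to a common library size with edgeR's TMM factors. *Rbbp4* itself had 9932, 9965 and 10117 normalized counts without the mutations (control libraries), 5485, 5551 and 5776 in Ins/Ins, and 10129, 10344 and 10603 in Ins/Del. It was thus lower only in Ins/Ins (log2 fold change −0.84 ± 0.0288 (SE), adjusted p = 1.8e-25) and not called in Ins/Del (0.05 ± 0.0279, adjusted p = 0.11). Insertion and deletion alleles can still be transcribed, so these levels do not check the genotypes. Adjusted p-values are those of the edgeR quasi-likelihood F-test after Benjamini-Hochberg correction across the tested genes, and a gene was called at an adjusted p of at most 0.01.

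*Frem2* and 3 of its 4 partners were lower in both mutant lines, and *Frem1* was close to the limit of detection in every line. Of the 4 partners, *Fras1*, *Grip1* and *Npnt* were called lower in Ins/Ins, beside 29.4% of all tested genes called lower and 29% called higher in that comparison. The same 3 were called lower in Ins/Del, beside 31.9% called lower and 30.6% called higher. In bulk samples like these, fewer cells that express a gene and less RNA per cell cannot be told apart.

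**Figure D1:**
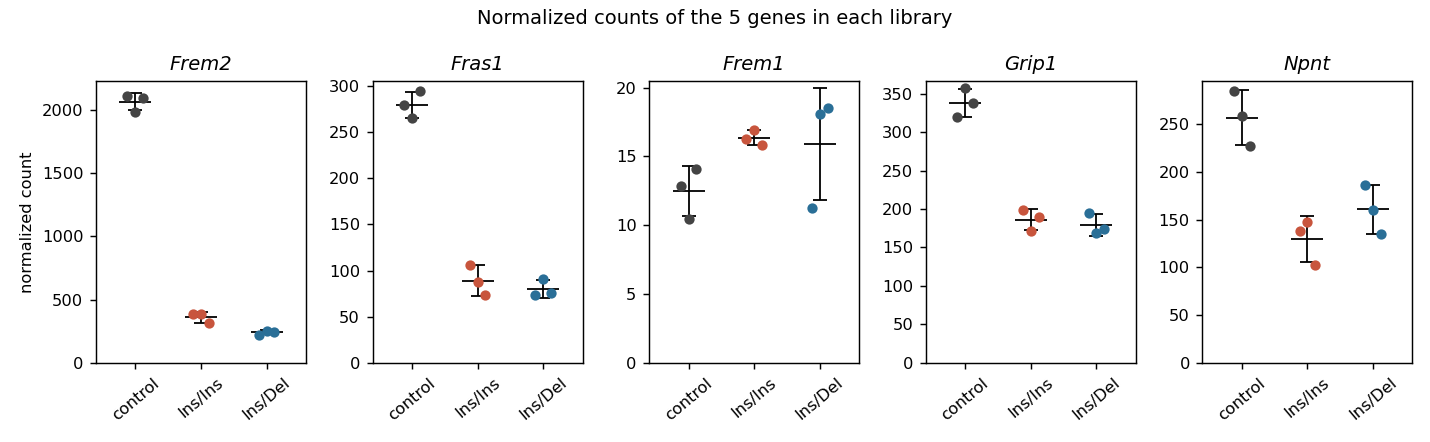
Normalized counts of the 5 genes in each of the 9 libraries, 1 panel per gene, with the control, Ins/Ins and Ins/Del lines along the horizontal axis, points for libraries, and bars for the mean and SD. *Frem2*, *Fras1*, *Grip1* and *Npnt* lie lower in all 6 mutant libraries than in the 3 control libraries, and *Frem1* stays under 20 counts throughout.

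*Frem2* reached 2114, 1988 and 2099 normalized counts in control cells, a mean of 2067 ± 68.86 (SD, n = 3). Counts in Ins/Ins were 384.1, 382.5 and 310.8 (359.1 ± 41.86, SD, n = 3), and in Ins/Del they were 220.8, 249.9 and 246.4 (239.1 ± 15.91, SD, n = 3). By these values, which chose the set, the 3 groups did not overlap. The lowest control library was far above the highest mutant library, and the lowest Ins/Ins library above the highest Ins/Del library. Over all tested genes, 30.6% had all mutant libraries below all control libraries. The share with every Ins/Ins library above every Ins/Del library is not given here. The means were 82.6% lower in Ins/Ins and 88.4% lower in Ins/Del, or 5.76-fold and 8.65-fold.

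The fitted log2 fold change of *Frem2* was −2.52 in Ins/Ins and −3.11 in Ins/Del. The difference between the mutant lines was −0.59, lower in Ins/Del. Ordered from the most reduced gene, *Frem2* was number 266 of the 14125 tested genes in Ins/Ins and number 168 in Ins/Del, within the lowest 1.88% and 1.19%. Between the mutant lines it was number 299, within the lowest 2.12%. The set was chosen by these contrasts, so the fold changes and ranks of *Frem2* are a description.

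*Fras1*, the partner whose protein is built most like that of *Frem2*, reached 279.6, 266.1 and 294.5 normalized counts in control cells (280.0 ± 14.21, SD, n = 3). Counts fell to 106.1, 88.02 and 72.94 in Ins/Ins (89.01 ± 16.58) and to 73.6, 91.13 and 75.21 in Ins/Del (79.98 ± 9.69). Control and mutant libraries did not overlap, and the mutant lines overlapped with each other. The means were 68.2% lower in Ins/Ins and 71.4% lower in Ins/Del.

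The fall of *Fras1* was called in both lines, at log2 −1.64 ± 0.114 (SE, adjusted p = 1.2e-15) in Ins/Ins and −1.80 ± 0.117 (adjusted p = 1.2e-16) in Ins/Del. No difference between the mutant lines was called (−0.16, 95% interval −0.45 to 0.13, adjusted p = 0.49). Its fold was 3.15 in Ins/Ins and 3.50 in Ins/Del, and it was the 1 of the 4 partners called lower by more than 2-fold in both lines, beside 8.1% of all tested genes.

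*Grip1*, the scaffold, had 319.7, 357.2 and 337.8 normalized counts in the control (338.2 ± 18.74, SD, n = 3), 198.4, 171.5 and 189.2 in Ins/Ins (186.4 ± 13.68) and 195.3, 168.7 and 173.6 in Ins/Del (179.2 ± 14.13). Every control library was above every mutant library, and the mutant lines overlapped. The log2 fold change was −0.85 ± 0.0883 (SE, adjusted p = 7e-11) in Ins/Ins and −0.91 ± 0.0893 (adjusted p = 1.2e-11) in Ins/Del. Between the mutant lines it was −0.06 (95% interval −0.26 to 0.14, adjusted p = 0.71), and no difference was called.

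*Npnt*, the integrin ligand, had 285.5, 258.7 and 227.4 normalized counts in the control (257.2 ± 29.12, SD, n = 3), 138.6, 147.8 and 102.5 in Ins/Ins (129.6 ± 23.92) and 186.1, 160.6 and 135.4 in Ins/Del (160.7 ± 25.34). Control libraries were again all above the mutant libraries, while the highest Ins/Ins libraries lay among those of Ins/Del.

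The log2 fold change of *Npnt* was −0.99 ± 0.117 (SE, adjusted p = 1.5e-09) in Ins/Ins and −0.68 ± 0.113 (adjusted p = 1.5e-06) in Ins/Del. Here the order of the mutant lines was opposite to that of *Frem2*, with Ins/Del above Ins/Ins by 0.31 (95% interval 0.06 to 0.57), which was not called (adjusted p = 0.081). None of the 4 partners was called between the mutant lines by edgeR or DESeq2, beside 10.8% of all tested genes called in either direction by edgeR, and 1 of them, *Npnt*, had an unadjusted p under 0.05 in each tool.

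*Frem1*, which encodes the secreted member of the family, had 10 to 20 reads per library. Normalized counts were 12.82, 10.48 and 14.07 in the control, 16.25, 16.93 and 15.86 in Ins/Ins and 11.24, 18.05 and 18.51 in Ins/Del. The control and Ins/Del libraries overlapped. Every Ins/Ins library was above the control, and the share of all tested genes with that order is not given here. The log2 fold change was 0.39 (95% interval −0.29 to 1.07, adjusted p = 0.31) in Ins/Ins and 0.35 (−0.34 to 1.04, adjusted p = 0.36) in Ins/Del, so a change was not detectable at this depth, and a fall of the size seen for *Fras1* lies outside both intervals. Of the 4 partners, 3 had all mutant libraries below all control libraries, beside 30.6% of all tested genes.

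**Figure D2:**
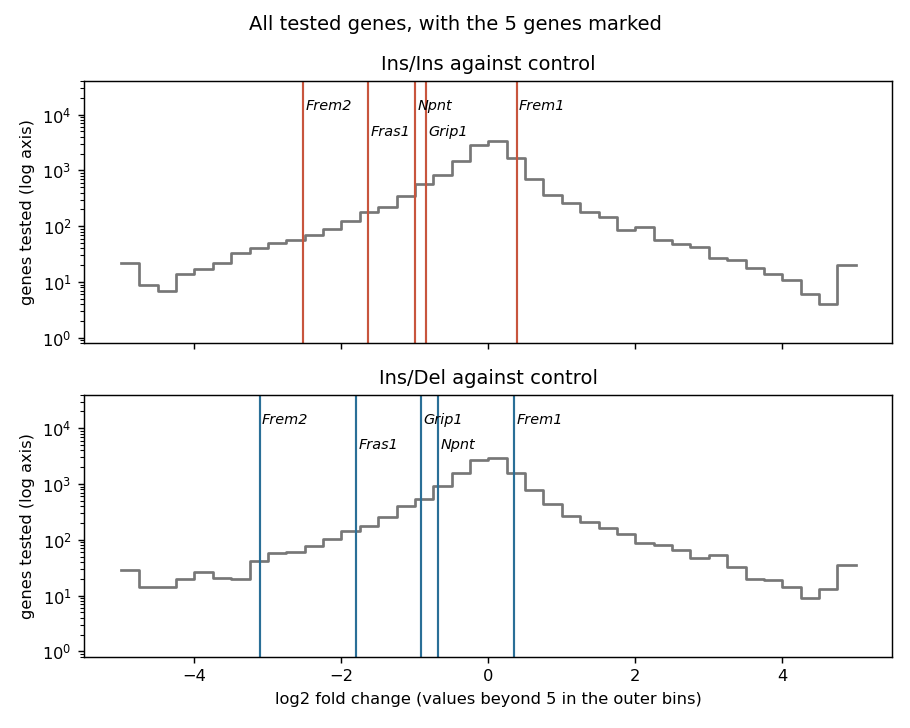
Number of tested genes by log2 fold change against the control in Ins/Ins and in Ins/Del, on a logarithmic vertical axis, with vertical lines at the 5 members. *Frem2* lies in the lower tail of both, while *Frem1* lies above the centre, at percentile 80.7 in Ins/Ins and 77 in Ins/Del.

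To compare levels between genes, TMM-scaled CPM (reads scaled to a common library total) were divided by the exonic length in kilobases. On this scale of level, the control order was *Frem2* (8.552 ± 0.2849, SD, n = 3), *Npnt* (2.806 ± 0.3177), *Grip1* (2.30 ± 0.1274), *Fras1* (0.8671 ± 0.04401) and *Frem1* (0.04887 ± 0.007169). The neighbours *Npnt* and *Grip1* differed by little more than their spread, and dividing by the longest transcript put *Grip1* (3.403) above *Npnt* (3.053). The other steps of the order were wider than the spread between libraries and kept their direction with coding length or the longest transcript.

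By exonic length, *Frem2* kept only a narrow lead in Ins/Ins and lost it in Ins/Del. In Ins/Ins its level per kilobase was 1.486 ± 0.1732, close to *Npnt* at 1.414 ± 0.261 and *Grip1* at 1.267 ± 0.09303. In Ins/Del *Frem2* was at 0.989 ± 0.0658, under *Npnt* at 1.753 ± 0.2765 and *Grip1* at 1.218 ± 0.09607. *Fras1* was at 0.2756 ± 0.05135 and 0.2477 ± 0.03 and stayed above *Frem1*, at 0.06412 ± 0.002122 and 0.06251 ± 0.01596. The order of the first 3 in Ins/Ins depended on the length used, with *Npnt* first by coding length (3.891) and *Grip1* first by the longest transcript (1.875).

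**Figure D3:**
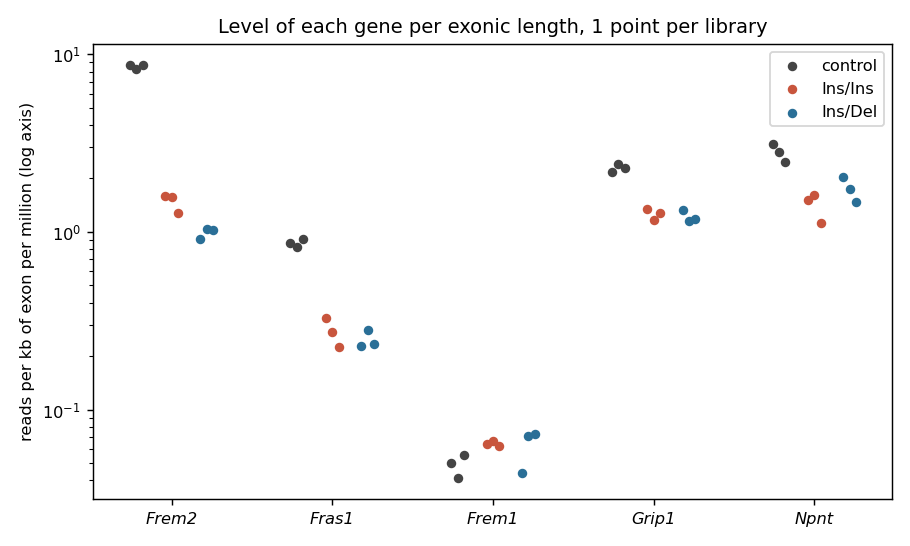
Level of each gene in CPM per kilobase of exon, on a logarithmic axis, for the 3 lines, with points for libraries. *Frem2* leads in the control at 8.552 and lies under *Npnt* and *Grip1* in Ins/Del at 0.989, and *Frem1* is lowest in all 3 lines.

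Ratios between members were taken within each library. The ratio of *Frem2* to *Fras1* per kilobase was 10.1, 9.983 and 9.524 in the control, 4.838, 5.807 and 5.693 in Ins/Ins and 4.008, 3.664 and 4.378 in Ins/Del. Groups did not overlap, and since *Frem2* chose the set, the ratio is a description. The ratio of *Grip1* to *Fras1*, which does not use *Frem2*, was 2.66 ± 0.25 (SD, n = 3) in the control, 4.695 ± 0.8719 in Ins/Ins and 4.986 ± 0.8827 in Ins/Del, and its highest control library (2.948) was under the lowest mutant library (4.066). With 3 libraries against 3, an exact two-sided permutation test cannot give a p under 0.1.

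The 5 genes with profiles most like that of *Frem2*, by Pearson's correlation of log2 CPM over the 9 libraries, were *Prtg*, *Nr6a1*, *Fndc3c1*, *Zfp946* and *Fgf5*. Correlations were 0.999 for *Prtg* and 0.99837 for *Fgf5*, the fifth, and 1551 of 12712 genes with a mean over 20 exceeded 0.95, since the libraries fall into 3 lines. *Prtg*, a cell-surface protein of the early embryo, had 3609 ± 200.5 normalized counts in the control, 349.0 ± 56.74 in Ins/Ins and 196.0 ± 14.96 in Ins/Del (SD, n = 3). *Fgf5*, a growth factor of the post-implantation epiblast, had 212.9 ± 4.1, 15.62 ± 0.7427 and 8.138 ± 1.739. In both, as in *Frem2*, Ins/Del was lowest, an order that follows from picking them for likeness to *Frem2*. The difference of *Fgf5* between the mutant lines was not called (−0.93, adjusted p = 0.046), on 6 to 19 reads per mutant library.

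Genes next to the members were compared to see whether the changes extended along the chromosome. The 2 nearest tested genes on each side of *Frem2* were *Nhlrc3*, *Proser1*, *Ufm1* and *Supt20*. *Ufm1*, 206.5 kb away from start to start, did not pass the test in Ins/Ins (0.02, adjusted p = 0.81) or Ins/Del (0.01, adjusted p = 0.81). *Nhlrc3* was the lowest of them, at −0.47 (adjusted p = 8e-04) in Ins/Ins and −0.46 (adjusted p = 0.00088) in Ins/Del. *Supt20* was also called lower in both, at −0.12 (adjusted p = 0.0035) and −0.18 (adjusted p = 4.2e-05). *Proser1* was called lower in Ins/Ins (−0.15, adjusted p = 0.0032) and not called in Ins/Del (−0.09, adjusted p = 0.064). None of the 4 approached the log2 changes of *Frem2*.

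Near *Fras1* the picture was mixed. *Anxa3*, a membrane-binding annexin that lies 8.61 kb past the end of *Fras1* (419.4 kb from start to start), fell by more than *Fras1* itself, from 770.8 ± 24.89 normalized counts in the control to 122.0 ± 25.15 in Ins/Ins and 114.8 ± 3.981 in Ins/Del, or log2 −2.65 (adjusted p = 4.9e-26) and −2.75 (adjusted p = 2.1e-26). *Mrpl1*, a mitochondrial ribosome subunit on the other side, rose by 0.54 (adjusted p = 1.5e-13) and 0.64 (adjusted p = 9.6e-16). The kinase gene *Dyrk2*, 584 kb from *Grip1* and beyond *Cand1*, fell, at −0.58 (adjusted p = 1.7e-07) and −0.84 (adjusted p = 8.7e-11). The other neighbours of *Grip1*, namely *Cand1*, *Helb* and *Tmbim4*, were not called. Beside *Npnt*, *Aimp1* rose by 0.51 (adjusted p = 7.1e-16) and 0.43 (adjusted p = 1.1e-13), against the direction of *Npnt* itself. *Tbck* (0.20 and 0.20) and *Ints12* (0.34 and 0.30) were also called higher in both lines. *Gstcd* was called lower in Ins/Ins (−0.22, adjusted p = 0.0016) and not called in Ins/Del (−0.10, adjusted p = 0.12). *Nfib*, 192 kb from *Frem1* and beyond *Zdhhc21*, was not called in Ins/Ins (−0.03, adjusted p = 0.83) and rose by 0.48 in Ins/Del (adjusted p = 0.00013). *Zdhhc21* was likewise called higher only in Ins/Del (0.13, adjusted p = 0.0072). On the other side, *Ttc39b* was called higher in both lines (0.21 and 0.56). *Snapc3* was called lower only in Ins/Ins (−0.23, adjusted p = 0.00031).

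**Figure D4:**
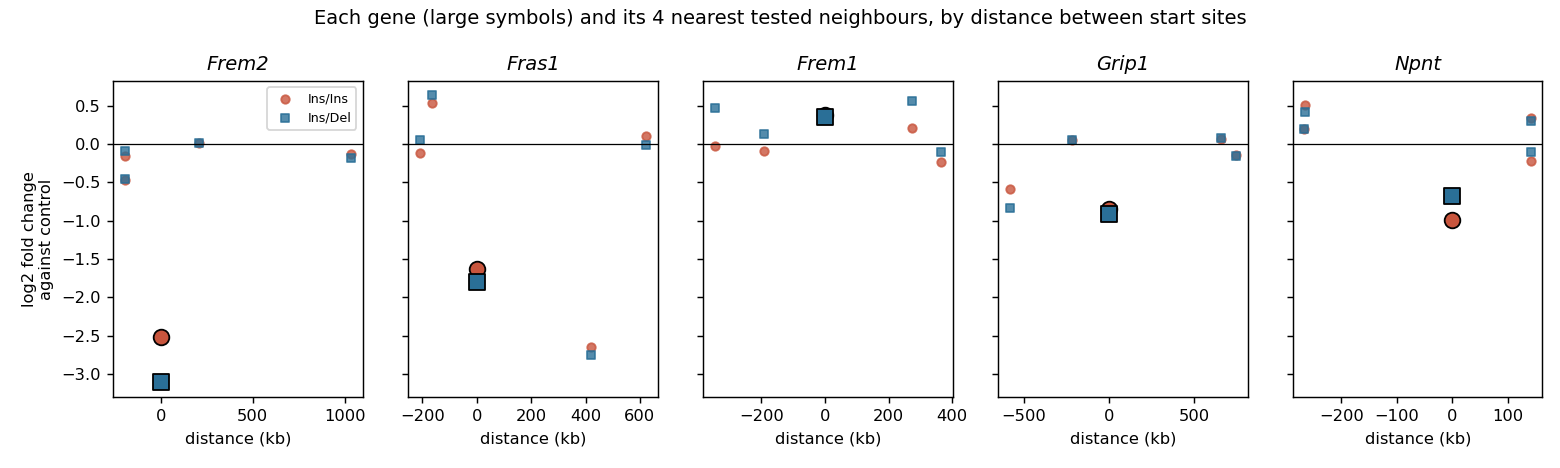
Log2 fold changes of each member and the 2 nearest tested genes on each side against distance in kilobases from the member's start, in Ins/Ins and Ins/Del. *Anxa3* beside *Fras1* falls further than the member, and the 4 neighbours of *Frem2* lie between −0.47 and 0.02 in both lines.

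The complex was then placed among its known partners, receptors and processing enzymes, a list of 20 genes of which 18 were tested. This list and the other gene lists below were written with earlier results of these data known, so their counts are a description. In Ins/Ins 12 were lower, 4 higher and 2 not called, with a median log2 fold change of −0.73, and in Ins/Del 12 were lower, 5 higher and 1 not called, with a median of −0.79. Over all tested genes 29.4% were lower and 29% higher in Ins/Ins, 31.9% lower and 30.6% higher in Ins/Del, and the medians were 0.0038 and −0.0107. Lower by more than 2-fold in both lines were *Col7a1*, *Grip2*, *Hmcn1*, *Itga3*, *Itgb1*, *Slit3* and *Vwa2*, 7 genes, and higher were *Egfl6* and *Hmcn2*, beside 8.1% and 6.58% of all tested genes. *Frem3*, the other family member, had at most 1 read in a library, and *Pcsk5* had 11 or fewer, and neither was tested.

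Among the matrix partners, *Vwa2*, which encodes the basement membrane protein AMACO, fell from 128.8 ± 14.63 normalized counts to 38.61 ± 1.4 in Ins/Ins (log2 −1.73, adjusted p = 5.5e-12) and 56.92 ± 11.23 in Ins/Del (−1.17, adjusted p = 1e-08). The hemicentins moved in opposite directions, *Hmcn1* at a log2 fold change of −1.23 (adjusted p = 4.7e-06) and −1.06 (adjusted p = 2.9e-05) and *Hmcn2* at 2.31 (adjusted p = 1e-14) and 2.46 (adjusted p = 8.6e-16). *Col7a1*, the anchoring fibril collagen, fell by 1.63 and 1.30, the axon guidance ligand *Slit3* by 1.48 and 1.41, and the fibulin *Fbln1* by 0.76 and 0.95. *Fbln2* was not called (−0.16, adjusted p = 0.59, and 0.36, adjusted p = 0.17).

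*Egfl6*, which encodes a matrix protein related to nephronectin, moved against *Npnt*. It had 13.51 ± 3.114 normalized counts in the control, 39.56 ± 7.699 in Ins/Ins and 89.75 ± 8.15 in Ins/Del (SD, n = 3), a rise of 1.54 (adjusted p = 2.5e-06) and 2.70 (adjusted p = 1.1e-13) on the log2 scale. The difference between the mutant lines was called, at 1.16 (adjusted p = 6.2e-06).

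Of the receptors, both chains of the nephronectin receptor fell. *Itga8* had 79.37 ± 4.544 normalized counts in the control, 42.87 ± 8.955 in Ins/Ins (−0.88, adjusted p = 3.3e-05) and 54.11 ± 7.35 in Ins/Del (−0.57, adjusted p = 0.0029). *Itgb1*, the β1 chain of many integrins, fell from 7967 ± 431.8 to 3609 ± 50.14 (−1.14, adjusted p = 9.2e-27) and 3776 ± 211.7 (−1.08, adjusted p = 4.7e-26). The laminin receptor chain *Itga3* fell further, from 2680 ± 57.53 to 755.4 ± 43.2 and 748.4 ± 25.72. *Itgav* fell by 0.45 and 0.43 and *Itgb3* by 0.53 and 0.67, whereas *Itgb4*, the hemidesmosome chain that itself holds a Calx-beta domain, rose by 0.58 and 0.67. *Itga6* was not called in Ins/Ins (0.00, adjusted p = 0.97) and rose by 0.13 in Ins/Del (adjusted p = 0.00064).

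The scaffold *Grip2*, the paralogue of *Grip1*, fell from 40.79 normalized counts to 16.9 in Ins/Ins (−1.28, adjusted p = 4.1e-05) and 15.33 in Ins/Del (−1.38, adjusted p = 1.5e-05). Of the proprotein convertases, which cleave matrix precursors, *Furin* fell by 0.70 (adjusted p = 1.1e-11) and 0.92 (adjusted p = 1e-14), while *Pcsk6* rose by 0.76 (adjusted p = 1.2e-16) and 1.16 (adjusted p = 5.9e-23).

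**Figure D5:**
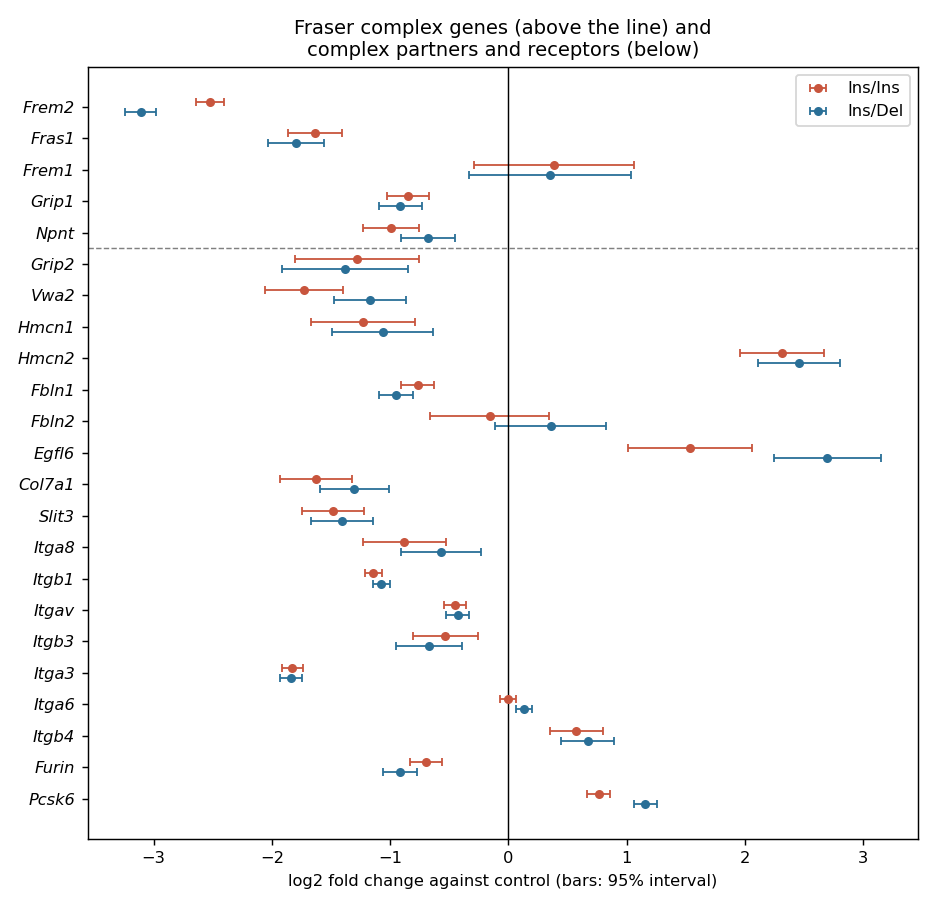
Log2 fold changes against the control in Ins/Ins and Ins/Del for the 5 members (above the dashed line) and the 18 tested partners, receptors and enzymes (below it), with points for the fitted value and bars for the 95% interval. The bars of *Frem1* and *Fbln2* span 0 in both lines, and *Hmcn2*, *Egfl6*, *Itgb4* and *Pcsk6* lie above 0 in both. The bars of *Frem2*, whose values chose the set, are a description.

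The basement membrane core held genes that moved in both directions. Of 24 tested laminin, collagen IV, nidogen and linker genes of 28 listed, 14 were lower and 6 higher in Ins/Ins (median −0.32), beside 29.4% and 29% of all tested genes. In Ins/Del 11 were lower and 10 higher (median −0.20), beside 31.9% and 30.6%. Between the mutant lines 1 was lower and 12 were higher in Ins/Del, beside 10.8% of all tested genes called in either direction. *Col4a5* fell by 4.19 and 2.91 on the log2 scale, *Lama4* by 1.72 and 1.74 and *Pxdn*, the enzyme that crosslinks collagen IV, by 2.04 and 1.78. *Col4a6*, one of the 14 and of the 11, had 13 to 17 reads in control libraries and at most 4 in any mutant library. *Col4a5*, also among the 14 and the 11, had 66 to 126 reads in control libraries and 3 to 15 in mutant libraries. Both genes passed the filter through the control, so their calls could only be lower.

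*Nid1*, which links laminin to collagen IV, rose from 2493 normalized counts to 6341 and 7637, and *Lama3* rose by 1.27 and 1.63. *Col15a1* had at most 4 reads in a control library and between 7 and 16 in the mutant libraries, and it passed the filter on low counts through the mutant libraries, so its call could only be higher. *Col4a1* and *Dag1*, singled out after their values were seen, were called in opposite directions in the mutant lines, *Col4a1* at −0.31 in Ins/Ins and 0.31 in Ins/Del and *Dag1* at −0.09 and 0.10.

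Of 14 tested genes of GRIP1-binding proteins and their transport, out of 16 listed, 7 were lower, 2 higher and 5 not called in each line, with medians of −0.30 and −0.14. Over all tested genes 29.4% were lower and 29% higher in Ins/Ins, and 31.9% lower and 30.6% higher in Ins/Del. *Efnb1* and *Efnb2*, ephrin ligands that bind GRIP1, fell by 1.41 and 2.01 in Ins/Ins and by 1.96 and 1.55 in Ins/Del. *Ephb4*, *Epha7* and the glutamate receptor gene *Gria3* were also lower by more than 2-fold in both, which makes 5 of 14 beside 8.1% of all tested genes. Among proteins outside the family with Calx-beta or CSPG repeats, 5 of 6 were tested, 3 were lower and 1 higher in Ins/Ins, and 2 were lower and 1 higher in Ins/Del, beside the same shares of all tested genes. The sodium-calcium exchangers *Slc8a1* and *Slc8a2* were lower by more than 2-fold in both, *Slc8a1* on 4 to 28 reads a library. *Slc8a1* passed the filter through the control, so its call could only be lower.

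Marker genes of ESCs were present in all lines and shifted between them. Their summed level over 8 genes was 5029 to 5259 CPM in the control libraries, 6280 to 6396 in Ins/Ins and 6282 to 6429 in Ins/Del, with none at 3 reads or fewer. In Ins/Ins 6 of the 8 were called higher and *Pou5f1* lower (−0.12, adjusted p = 2e-04), and in Ins/Del 5 were called higher and none lower. Beside this and the marker counts below, 29.4% of all tested genes were called lower and 29% higher in Ins/Ins. In Ins/Del these shares were 31.9% and 30.6%. Summed markers of several other cell types were lower in the mutant lines. Few genes carried most of each of these control sums, and each list also held genes called higher. Fibroblast or mesenchyme markers summed to 181.2 to 198.3 CPM in the control, 18.19 to 20.73 in Ins/Ins and 20.48 to 23.28 in Ins/Del, with 5 of the 6 tested called lower and *Thy1* called higher in both, and with *Col3a1* and *Postn* at 3 reads or fewer in the mutant lines. *Col3a1* and *Col1a2* passed the filter through the control, so their calls could only be lower. Most of the control sum came from *Tagln* and *Acta2*. Trophectoderm markers ranged over 269 to 294.9, 146.1 to 155.6 and 100.2 to 104.1 in the same order of lines, with 4 and 5 of the 7 tested called lower, *Eomes* called higher in both lines and *Tfap2c* called higher in Ins/Ins. Of those called lower, *Cdx2* passed the filter through the control, so its call could only be lower. *Krt8* and *Krt18* gave most of the control sum. Neural markers ranged over 165 to 167.9, 72.84 to 79.82 and 90.09 to 93.89, with *Nes* and *Pax6* called lower and *Tubb3* higher in both lines. *Nes* alone gave most of the control sum. Primitive endoderm markers ranged over 20.78 to 22.8, 12.93 to 16.13 and 18.65 to 19.84, with *Dab2* and *Gata4* called lower in both lines and 1 and 4 of the 7 tested called higher. *Sox17*, called higher in Ins/Del only, passed the filter through the mutant libraries, so its call could only be higher. *Dab2* gave most of the control sum, and the median log2 fold change of the tested genes was 0.31 in Ins/Ins and 0.89 in Ins/Del. Surface epithelium is where the complex is known best. Its markers summed to 124.8 to 134, 148.1 to 158.8 and 134 to 146.2, with *Krt5* and *Krt15* at 3 reads or fewer in the control and Ins/Del. Only 4 of the 8 were tested: *Cldn4*, which carries most of the sum, and *Grhl3* were called higher in both lines, *Ovol1* was not called, and *Krt19* fell by 1.30 in both (adjusted p = 2.1e-15 and adjusted p = 2e-15). The part of other cells in the fall of the complex genes was not tested.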

How the data were processed

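RNA was sequenced from 9 libraries of E14 ESCs, 3 each of the control, Ins/Ins and Ins/Del lines, grouped by the genotype labels. The authors aligned reads to mm10 with STAR (2.7.3, per the submitters' processing notes) and counted them per gene with HTSeq, whose version, annotation and strand setting are not given in the sources used here. The deposited values are raw read counts for 25239 gene symbols, one file per library, and the authors' own test was DESeq2 (1.22.2).

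Here counts were scaled by TMM, filtered with filterByExpr (14125 genes left) and fitted over all 9 libraries with edgeR 4.0.16 in R 4.3.3 (quasi-likelihood test, Benjamini-Hochberg adjustment, limit 0.01). DESeq2 1.42.0 was an alternative. The fit was tested on simulated data. Gene limits and lengths came from GENCODE M21 (GRCm38), which gave a length for 13891 tested genes, and promoters from RefSeq. Correlations with *Frem2* used log2 CPM with a prior count of 2.

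Named were the 5 members, every measured complex partner or receptor, genes of the other lists called in the same direction in both lines beyond 2-fold, the 5 profiles most like *Frem2* with a mean over 20, and the 2 nearest tested genes on each side, from which examples are given. The members and lists were chosen with earlier results of these data known. Totals of 15838064 to 21366868 reads limit the precision for genes of few reads, and replicate libraries differed by more than sampling noise.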

Additional observations from a re-analysis of the deposited data

Results flagged for a closer look

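The direct edgeR test of Ins/Del against Ins/Ins passed an adjusted p of 0.01 for 15 of 63 genes named or examined around the complex, beside 10.8% of all tested genes. Of the 63, 5 were picked for likeness to *Frem2*, which was chosen by its difference between the lines, and *Col4a1* and *Dag1* for their opposite calls, so the count is a description. Higher in Ins/Del, on the log2 scale, were *Egfl6* (1.16), *Col4a1* (0.62), *Nfib* near *Frem1* (0.51), *Efnb2* (0.46), *Pcsk6* (0.4), *Lama3* (0.37), *Ttc39b* (0.35), *Nid1* (0.27), *Pxdn* (0.26), *Zdhhc21* (0.22), *Dag1* (0.19) and *Itga6* (0.13). Lower in Ins/Del were *Fndc3c1* (−0.86), *Prtg* (−0.82) and *Nr6a1* (−0.21), all from the genes picked for likeness to *Frem2*, so that their direction follows that choice.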

How the results depend on the processing

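The fold changes of the 4 partners against the control kept their direction and their side of the threshold, and that of *Frem2*, which was not tested, kept its direction, under every alternative tried: other scalings, DESeq2, no filter on low counts, fits of only the groups compared, a limit of 0.05 and each library left out. *Frem2* ranged from −2.57 to −2.43 in Ins/Ins and from −3.15 to −3.06 in Ins/Del. With each library left out, *Fras1* between the mutant lines ranged from −0.28 to 0.01, the latter without Ins/Ins replicate 1, and *Frem1* from −0.15 to 0.16, the latter without Ins/Del replicate 1. Neither was called in any fit. DESeq2 gave no adjusted p for *Frem1* between the mutant lines. At a limit of 0.05, more genes differed between the mutant lines by construction: 2682 of all genes (1527 at 0.01), 5 complex partners (3) and 5 GRIP1 partners (1). With libraries left out, the count over all genes ranged from 988 (without Ins/Del replicate 2) to 1646, with 1014 without Ins/Ins replicate 1, and the GRIP1 count from 0 to 2. Replicate numbers did not pair the libraries: same-numbered libraries correlated at −0.0277 to 0.0559 over 9 pairs, and 4 of 9 libraries correlated best with their own number. With the replicate block, *Frem2* stayed at −2.52 and −3.11, and 1499 genes differed between the mutant lines. With 10 to 20 reads a library, *Frem1* is limited by depth, and levels per kilobase depend on the length used.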
